A study of Mus musculus with 2 samples.

Results

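Amino acid and neurotransmitter transporters were examined in differentiated C2C12 cells, a mouse myoblast line that fuses into myotubes when serum is lowered. The genes were taken by name from 7 families of solute carriers (Slc1, Slc3, Slc6, Slc7, Slc36, Slc38 and Slc43), which gave 125 probe sets of 63 genes out of 45101 probe sets and 18193 genes with a single symbol. Members were chosen by name, but the choice was made knowing that Slc6a2 was much higher in the knockdown and that Slc1a2 is a reported target of LRRFIP1, so both are given below as descriptions. Of the 63 genes, 3 matched by name alone and encode no transporter, namely Slc6a19os, Slc7a6os and Slc36a1os, which are named for the opposite strand of a transporter gene.

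The shLrrfip1a cells carried a hairpin against Lrrfip1 and the control cells a control hairpin, spelled shLCUI in the sample labels, in otherwise like C2C12 cultures. Both were grown with 10% fetal bovine serum, then kept for 5 days in medium with 2% horse serum, and total RNA was hybridised to Affymetrix mouse arrays. Each group was read on 1 array, from cells of 1 line and with 1 hairpin per group named in the labels, so the differences below have no error estimate and are not tested. Whether the cells were clones or pools is not given in the sources used here.

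Transporters of the Slc1 family carry glutamate, aspartate or small neutral amino acids into cells along with sodium, and those of the Slc6 family carry monoamines, glycine, GABA, taurine, creatine or proline with sodium and chloride. Slc7 members are exchangers and uniporters, several of which reach the cell surface only when bound to an Slc3 heavy chain, while Slc36, Slc38 and Slc43 members carry small neutral amino acids, glutamine or branched-chain amino acids. In muscle these carriers supply amino acids for protein synthesis and bring in taurine and creatine. LRRFIP1 has been described as a repressor that binds GC-rich DNA, and the glutamate transporter gene SLC1A2 has been reported as a target of it in human cells.

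Values are deposited intensities in arbitrary units, and a difference is log2(intensity + 16) of the shLrrfip1a array minus that of the control array. This scale understates the difference of dim probe sets. A gene was read from its probe set with the highest mean level, and it was counted where that mean exceeded 52.5, the median over every probe set on the arrays. This level filter kept 11439 genes and 36 of the 63 members. Intensities were on nearly the same scale on both arrays, with medians of 53.5 and 51.4 in shLrrfip1a and control. Lrrfip1 itself read 375, 292 and 108 on its 3 probe sets in shLrrfip1a, against 531, 469 and 160 in the control, which is 62.2% to 70.6% of the control intensity. The targeted gene was thus lower on every probe set but well short of 2-fold.

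Of the 36 transporter genes that passed the level filter, 2 read at least 2-fold higher in shLrrfip1a, where 0.664% of all genes were, and none was at least 2-fold lower, where 0.691% of all genes were. The higher genes were Slc6a2, the noradrenaline transporter, and Slc1a3, the glutamate and aspartate transporter also called GLAST. Slc6a2 was known to be much higher when the members were chosen, so the count of 2 was partly given in advance. Without these 2 genes 34 members remained above the filter, none of them past 2-fold, with a median of 0.02. At 1.5-fold, 3 members were higher (2.34% of all genes) and none was lower (2.47% of all genes), the additional one being the glutamate transporter Slc1a6. The 0 lower rests on the pseudocount and scale, since Slc38a6 (-0.56) came to -0.60 with a pseudocount of 1 and -0.59 with median centring, both past 1.5-fold. The median difference over the 36 genes was 0.04, beside 0.00 over all genes, with 20 members above 0 and 16 below. Differences of less than 0.25 in size were found for 24 of the 36 members (66.7%) and for 70.4% of all genes. Of 157 other solute carrier genes above the filter, 1 was at least 2-fold higher (0.637%) and none was lower, with a median of -0.01; this comparison was added after the values were seen. Scaling both arrays to 42 spike-in controls in place of the deposited scale added 0.16 to every difference, so that those between -0.16 and 0 turned positive. The members past 2-fold stayed 2 higher and 0 lower, while over all genes the 76 higher and 79 lower became 116 higher and 53 lower.

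**Figure D1:**
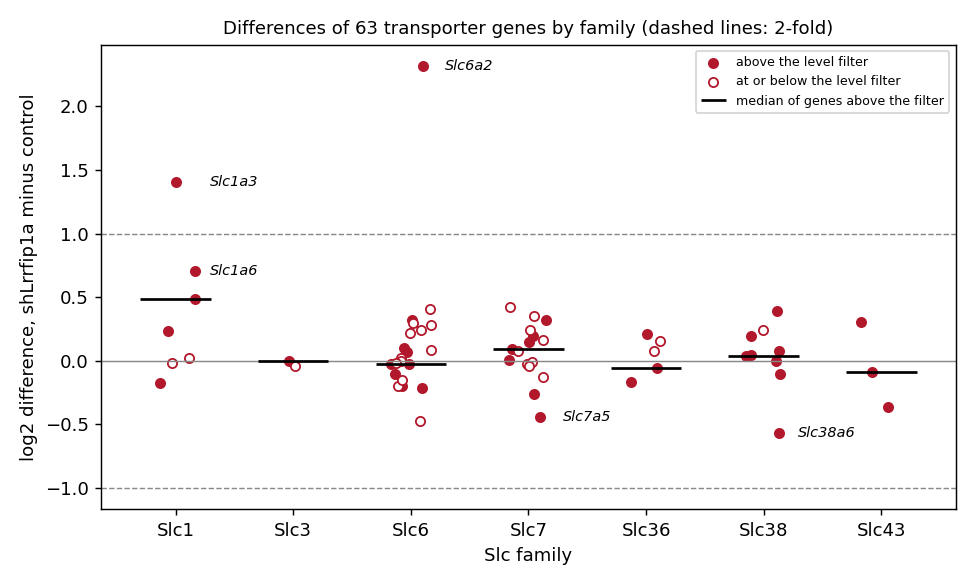
Log2 difference (shLrrfip1a minus control, vertical axis) of each of the 63 genes by Slc family (horizontal axis). Filled points are genes above the level filter, open points genes at or below it, black bars the medians of the filled points and dashed lines 2-fold. Slc6a2 (2.32) and Slc1a3 (1.41) lie above the upper dashed line, and no gene lies below the lower one.

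Sequences upstream of the start of 4 Slc1 genes are shown, those of the 3 members with the largest differences in the family and of the reported target Slc1a2, a choice made after their values were seen. They come from RefSeq (GRCm38.p6), hold the 250 bases before the annotated start and run 5′ to 3′ on the gene's strand, with GGGCGG or its reverse complement CCGCCC in capitals.
Slc1a3, chr15:8710808-8711057, minus strand: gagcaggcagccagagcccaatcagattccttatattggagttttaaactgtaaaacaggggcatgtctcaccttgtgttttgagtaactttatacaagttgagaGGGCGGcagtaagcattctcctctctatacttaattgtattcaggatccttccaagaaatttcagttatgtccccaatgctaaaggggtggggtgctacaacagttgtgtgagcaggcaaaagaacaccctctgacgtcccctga
Slc1a4, chr11:20332714-20332963, minus strand: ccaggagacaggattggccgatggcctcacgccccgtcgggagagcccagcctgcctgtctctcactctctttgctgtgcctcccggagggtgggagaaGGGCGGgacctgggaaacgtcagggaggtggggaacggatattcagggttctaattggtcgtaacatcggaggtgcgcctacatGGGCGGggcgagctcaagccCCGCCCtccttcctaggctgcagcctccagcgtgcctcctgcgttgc
Slc1a6, chr10:78780246-78780495, plus strand: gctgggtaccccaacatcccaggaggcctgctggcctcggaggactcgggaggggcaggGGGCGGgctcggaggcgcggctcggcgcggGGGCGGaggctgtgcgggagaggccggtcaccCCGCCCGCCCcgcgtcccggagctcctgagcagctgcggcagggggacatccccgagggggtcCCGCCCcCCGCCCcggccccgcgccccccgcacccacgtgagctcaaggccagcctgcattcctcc
Slc1a2, chr2:102706188-102706437, plus strand: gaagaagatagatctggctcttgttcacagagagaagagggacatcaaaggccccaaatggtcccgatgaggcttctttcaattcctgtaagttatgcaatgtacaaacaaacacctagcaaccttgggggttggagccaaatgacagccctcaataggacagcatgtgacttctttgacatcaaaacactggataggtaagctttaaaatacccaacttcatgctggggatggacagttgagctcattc

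The GC box letters occurred once upstream of Slc1a3, 3 times upstream of Slc1a4, 6 times upstream of Slc1a6 with overlapping matches counted singly, and 0 times upstream of Slc1a2. The other Slc1 windows, of Slc1a1 (70.4% GC, level at -0.01) and Slc1a7 (54.8%), held them once each. G and C made up 44.8% of these bases for Slc1a3, 64.8% for Slc1a4, 78.8% for Slc1a6 and 44.8% for Slc1a2. Over all 32851 RefSeq windows of this length the median was 52.4%, and 32.7% of the windows held the letters on either strand, as did 33 of 70 windows of the 7 families (47.1%). Slc1a3 and Slc1a2 had the same GC share in this window. Each window belongs to an annotated start. Whether it is the main start of its gene, for Slc1a2 as for the others, was not examined. Any link between GC share and the readings was not tested. A match of letters is a description of the sequence and not a binding site. A window was found for 46 of the 63 members, and there was none for Slc6a2 or Slc1a5.

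Slc1a3 was higher in shLrrfip1a on all 6 of its probe sets. Its representative probe set read 650 in shLrrfip1a and 235 in the control (log2 difference 1.41), and 38 of 11439 genes had a larger difference. The 4 further probe sets above the filter read 356 against 122 (1.43), 313 against 110 (1.39), 210 against 87.2 (1.13) and 247 against 220 (0.16). So 4 of the 5 bright probe sets showed 2.40 to 2.91 times the control intensity, and 1 was close to level. The sixth was dim, at 52.6 against 25.2 (0.74). The 313 against 110 pair came from a probe set of a kind that can bind other transcripts. Where on the gene the nearly level probe set lies was not analysed here.

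Slc6a2 was higher on all 4 of its probe sets, but by very different amounts. The probe set that stood for the gene read 777 in shLrrfip1a and 143 in the control (2.32), and 9 of 11439 genes had a larger difference. The next ones read 93.2 against 55.6 (0.61) and 88.0 against 52.9 (0.59), and the dimmest 30.0 against 25.2 (0.16). One probe set therefore carried the 2-fold size, and the mean over the 4 was 0.92. For Slc1a3 the mean over 6 probe sets was 1.04, so its size did not rest on a single probe set.

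**Figure D2:**
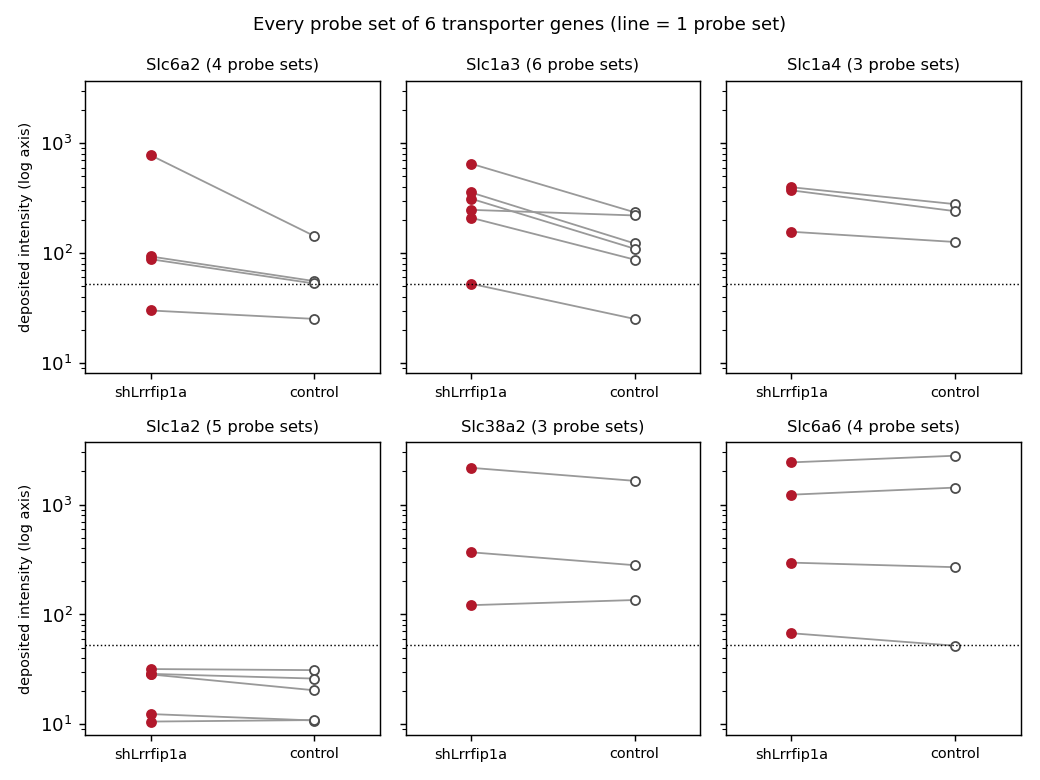
Deposited intensity (log axis) of every probe set of 6 transporter genes in shLrrfip1a (filled) and control (open), with a line for each probe set and the level filter as a dotted line. All lines of Slc6a2, Slc1a3 and Slc1a4 slope down toward the control, those of Slc1a2 stay below the filter, and those of Slc38a2 and Slc6a6 run in both directions.

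Slc1a2 encodes GLT-1, the main glutamate transporter of astrocytes. Its 5 probe sets read 31.9, 28.8, 28.5, 12.4 and 10.6 in shLrrfip1a, against 31.2, 26.1, 20.4, 10.85 and 10.95 in the control. All were under the filter on each array, and their differences ran from -0.02 to 0.29. The reported target was thus dim throughout, and the files hold no detection call to tell such readings from background.

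Among the other Slc1 genes, the neutral amino acid exchanger gene Slc1a4, also called ASCT1, read 397 against 279 (0.49), 372 against 241 (0.60) and 156 against 126 (0.28). It was higher on all 3 probe sets but reached 1.5-fold on 1 of them only. Slc1a6, the glutamate transporter of cerebellar Purkinje cells, had 1 probe set, at 103 against 56.9 (0.71), and 172 genes had a larger difference. Its control reading was close to the filter, and a pseudocount of 1 gave 0.84 while one of 64 gave 0.46. The retinal glutamate transporter gene Slc1a7 read 107 against 88.5 (0.24), and the glutamine carrier Slc1a5, also called ASCT2, was slightly lower at 177 against 201 (-0.17). The neuronal glutamate transporter Slc1a1 stayed below the filter at 39.6 against 40.1. Of 5 Slc1 genes above the filter 4 were thus higher, with a median of 0.49, the highest of the 7 families. With the 2 genes below the filter included the median was 0.24.

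Of 21 Slc6 genes, 9 lay above the filter, and apart from Slc6a2 their differences ran from -0.22 to 0.32. The family median was -0.02. The carriers that muscle is known to use were close to level. Slc6a6, the taurine transporter, read 2419 against 2780 (-0.20), 1229 against 1426 (-0.21), 296 against 269 (0.13) and 67.5 against 52.0 (0.30), so its probe sets differed in direction. Slc6a8, the creatine transporter, read 529 against 570 (-0.11) and 289 against 362 (-0.31), lower on both. The glycine transporter gene Slc6a9 read 257 against 244 (0.07) and 82.6 against 70.7 (0.18).

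The remaining Slc6 genes above the filter have roles outside muscle. The vesicular transporter of neurons Slc6a17 was lower on its 3 probe sets, at 106 against 126 (-0.22), 48.6 against 72.6 (-0.46) and 55.9 against 58.6 (-0.05). The kidney transporter gene Slc6a18 read 182 against 142 (0.32), the brain proline transporter Slc6a7 136 against 138 (-0.03) and the betaine and GABA transporter Slc6a12 59.5 against 60.6 (-0.02). The opposite-strand gene Slc6a19os read 61.9 against 56.7 (0.10). The other monoamine carriers were dim, with the dopamine transporter Slc6a3 at 26.5 on each array and the serotonin transporter Slc6a4 at 27.4 against 27.96. Of these 3 monoamine transporters, Slc6a2 was the 1 above the filter. In all, 12 Slc6 genes lay below the filter, at 6.94 to 42.1 in shLrrfip1a and 2.12 to 39.5 in the control. They include the glycine transporter Slc6a5, the GABA transporters Slc6a11 and Slc6a13, the neutral and cationic amino acid carrier Slc6a14, the neutral carriers Slc6a15 and Slc6a19, the imino acid carriers Slc6a20a and Slc6a20b, and also Slc6a16 and Slc6a21.

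Slc3a2 encodes the heavy chain CD98 that several Slc7 light chains need, and its probe set read 1062 on both arrays (difference 0.00). Slc3a1, the heavy chain of kidney and gut, was dim at 23.9 against 25.0. The CD98 partner Slc7a5, or LAT1, which takes up large neutral amino acids such as leucine, was the lowest Slc7 gene at 564 against 772 (-0.44), and 569 genes (4.97%) had a lower difference. Its partner gene Slc3a2 was level while Slc7a5 was lower, and each was read by 1 probe set. The further CD98 partners Slc7a6 (209 against 180, 0.20) and Slc7a7 (179 against 178, 0.01) carry cationic and neutral amino acids, and Slc7a8, or LAT2, was dim (6.58 against 4.18).

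The arginine and lysine transporter gene Slc7a1 was higher on its 3 probe sets, at 590 against 531 (0.15), 602 against 468 (0.35) and 47.5 against 38.6 (0.22). Slc7a2, of the same group, read 1709 against 1604 (0.09) on its representative probe set and was lower on the other 3, by up to -0.24. Slc7a4, a relative of these, read 70.1 against 87.4 (-0.26). The cystine and glutamate exchanger gene Slc7a11, or xCT, read 43.8 against 44.7 (-0.02) and 15.6 against 27.4 (-0.46), both below the filter. Slc7a6os read 67.1 against 50.5 (0.32) and 49.2 against 55.4 (-0.13) on its 2 probe sets. Of 16 Slc7 genes 7 passed the filter, with a median of 0.09, and 9 lay below it at 6.58 to 43.8 in shLrrfip1a and 3.80 to 44.7 in the control. Those not yet named are Slc7a3, Slc7a9, Slc7a10, Slc7a12, Slc7a13, Slc7a14 and Slc7a15. Slc7a12 had the largest difference among them, 0.42 at 10.6 against 3.80, and on that dim probe set it was 1.27 with a pseudocount of 1 and 0.14 with 64.

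The Slc38 family holds sodium-coupled carriers of glutamine, alanine and other neutral amino acids. Its member Slc38a2, the carrier known to be induced when amino acids are scarce, read 2159 against 1642 (0.39) and 368 against 281 (0.37), but 121 against 135 (-0.14) on its dimmest probe set. Slc38a1 was level at 440 against 441 (0.00) and 248 against 260 (-0.06). Slc38a6 had the lowest difference of all members above the filter, at 178 against 271 (-0.56), and 306 genes (2.68%) had a lower one. Its other probe set was dim, at 33.7 against 36.8 (-0.09). The lysosomal arginine sensor gene Slc38a9 was read by 7 probe sets with differences of -0.11 to 0.14, and the lysosomal glutamine carrier Slc38a7 read 137 against 129 (0.08). Slc38a10 ran from -0.02 to 0.31 over 7 probe sets, with the largest value on a dim one, and read 824 against 799 (0.04) on its representative. The glutamine carrier gene Slc38a3 and the placental carrier gene Slc38a4 lay near the filter, at 63.2 against 53.1 (0.20; 0.43 on a dimmer probe set) and 54.5 against 52.7 (0.04), and Slc38a5 was dim (20.8 against 15.1). The family median was 0.04 over 8 genes.

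Slc36 genes encode carriers of small amino acids with protons, some of them lysosomal. Slc36a1 read 95.6 against 80.1 (0.21), Slc36a4 202 against 230 (-0.17) and Slc36a3 74.1 against 77.7 (-0.06), while Slc36a2 and Slc36a1os were below the filter. The family median was -0.06. Slc43a1 and Slc43a2 encode uniporters of branched-chain and other large neutral amino acids, and read 76.3 against 82.3 (-0.09) and 181 against 144 (0.30). Slc43a2 was higher on its 3 probe sets, by at least 0.04. Slc43a3, a purine base carrier in human cells, was lower at 141 against 186 (-0.36). The Slc43 median was -0.09, so neither of these small families had a member past 1.5-fold.

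**Figure D3:**
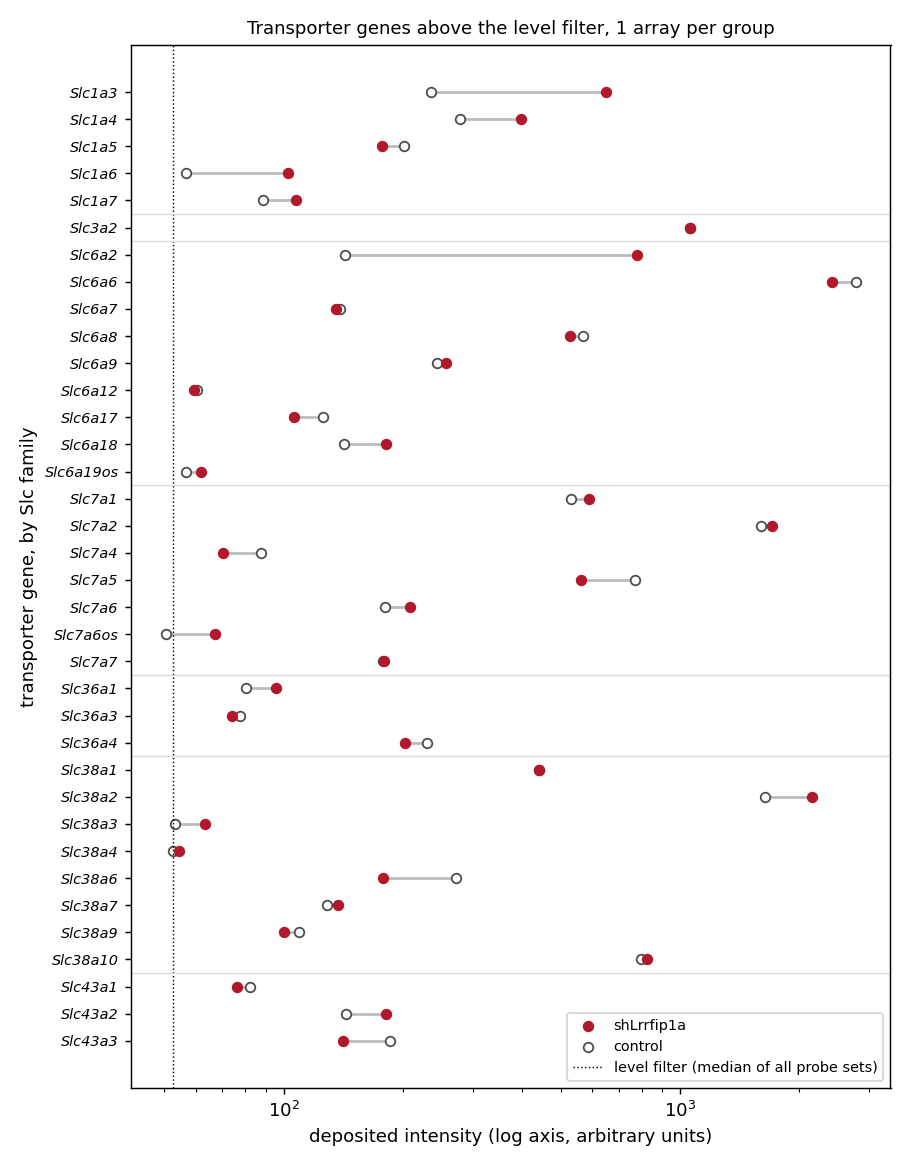
Deposited intensities (log axis) of the representative probe set of the 36 members above the level filter, with shLrrfip1a filled and control open and grey lines between Slc families. The long bars are those of Slc6a2 (777 against 143) and Slc1a3 (650 against 235), followed by Slc1a6, Slc38a6 and Slc1a4.

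For 15 members with several probe sets above the filter, 10 had all of them on the same side of 0 (66.7%), beside 60.3% of 4847 such genes overall. The 5 members with mixed directions were Slc6a6, Slc7a2, Slc38a2, Slc38a9 and Slc38a10. Over the 69 member probe sets above the filter, 5 were at least 2-fold higher, where 0.622% of all such probe sets were, and none was at least 2-fold lower, where 0.576% were. These 5 are the 4 of Slc1a3 and the 1 of Slc6a2, and those of Slc1a3 all read RNA of 1 gene.

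Several transporter genes are known targets of the amino acid response, in which ATF4 binds a composite element with the core letters TTGCATCA. That core, or its reverse complement TGATGCAA, was searched on both strands in RefSeq windows from 250 bases before to 50 after the start. It occurred in 0.895% of 32851 windows and in 4 of 70 windows of the 7 families, which belonged to Slc7a11, Slc1a4 and Slc7a7. Overlapping windows of Slc7a7 held the same site, so that site counts more than once among the 4. The 70 windows came from 49 genes, of which 46 are among the 63 members. The stretches are shown because these genes can be set beside the amino acid response genes below. The core is in capitals and the gene's strand runs 5′ to 3′ (GRCm38.p6, all on the minus strand).
Slc1a4, chr11:20332699-20332728: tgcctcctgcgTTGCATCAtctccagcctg
Slc7a11, chr3:50443661-50443690: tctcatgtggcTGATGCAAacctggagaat
Slc7a11, chr3:50443642-50443671: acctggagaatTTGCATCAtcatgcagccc
Slc7a7, chr14:54417927-54417956: gacctagaagcTGATGCAAcagcttccccg
Of these genes Slc1a4 was higher (0.49) and Slc7a11 was dim. Slc7a7 was level (0.01) on its representative probe set and dim on its other, at 38.5 against 40.6 (-0.05).

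Genes of the amino acid response, a list that includes Atf4, lay mostly lower in shLrrfip1a. Of 22 genes of the amino acid response, all above the filter, 16 were lower and 6 higher, where 5644 of all 11439 genes were lower. The list's median was -0.20 beside 0.00 over all genes (-0.04 beside 0.16 on the spike-in scale). Cth, which makes cysteine, was the 1 member past 2-fold (0.691% of all genes were as much lower), at 92.4 against 202 (-1.01). This reading, of a single probe set, lay at the threshold, and on the spike-in scale Cth was short of 2-fold. The asparagine synthetase gene Asns read 758 against 1099 (-0.53), and the proline synthesis gene Aldh18a1 read 360 against 521 (-0.51). Atf4 itself read 1995 against 1859 (0.10) and 1228 against 918 (0.41) on its 2 probe sets above the filter, both higher, and the leucine sensor gene Sesn2 read 314 against 256 (0.28).

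Of 19 aminoacyl-tRNA synthetase genes, 16 were lower and 3 higher, none past 2-fold (median -0.12, or 0.04 on the spike-in scale, where the median of all genes was 0.16). The largest differences were those of Farsa (567 against 415, 0.44), Sars (727 against 950, -0.38) and Qars (394 against 505, -0.35). Genes of amino acid sensing and the growth kinase mTORC1 were close to level, with a median of -0.04 over 20 genes and none past 2-fold. The sestrin gene Sesn3 read 448 against 306 (0.53) and, on a second probe set, 208 against 183 (0.17). Nprl2, of an inhibitor complex of mTORC1, read 109 against 135 (-0.27), and the lysosomal scaffold gene Lamtor1 read 1012 against 865 (0.22).

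Enzymes that handle the substrates of these carriers gave no 2-fold difference. Of 10 genes of glutamate, glutamine and glutathione metabolism, 7 were higher (median 0.21, or 0.11 with probe sets averaged). The glutamine synthetase gene Glul read 778 against 637 (0.28). The largest differences were those of the aspartate aminotransferase Got1 (291 against 431, -0.54), the ornithine aminotransferase Oat (1066 against 827, 0.36) and Gclc, which starts glutathione synthesis (165 against 208, -0.31). Of 10 genes of creatine, taurine and branched-chain metabolism 7 were higher (median 0.20), led by Csad, an enzyme of taurine synthesis, at 234 against 123 (0.85). The creatine kinase Ckm and the creatine synthesis enzyme Gamt followed, with differences of 0.38 and 0.37. Csad was thus higher on its only probe set, while the taurine transporter Slc6a6 was lower on 2 probe sets and higher on 2.

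Of 10 other amino acid carriers above the filter none was past 2-fold (median 0.01). The mitochondrial ornithine carrier Slc25a15 read 54.4 against 92.9 (-0.63), the aromatic amino acid carrier Slc16a10 108 against 81.2 (0.35) and the lysosomal carrier Slc17a5 127 against 162 (-0.32). The catecholamine list bears on Slc6a2, which clears noradrenaline. Of 9 such genes measured 5 passed the filter, none past 2-fold (median 0.17), with Pnmt at 256 against 179 (0.48), Adra2c at 94.5 against 66.3 (0.42) and Gch1 at 59.4 against 80.4 (-0.36). Th, the first enzyme of catecholamine synthesis, was dim (21.3 against 21.0), and Dbh, which makes noradrenaline, read 133 against 117 (0.17) and 98.2 against 98.9 (-0.01). With probe sets averaged the list's median was 0.04.

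**Figure D4:**
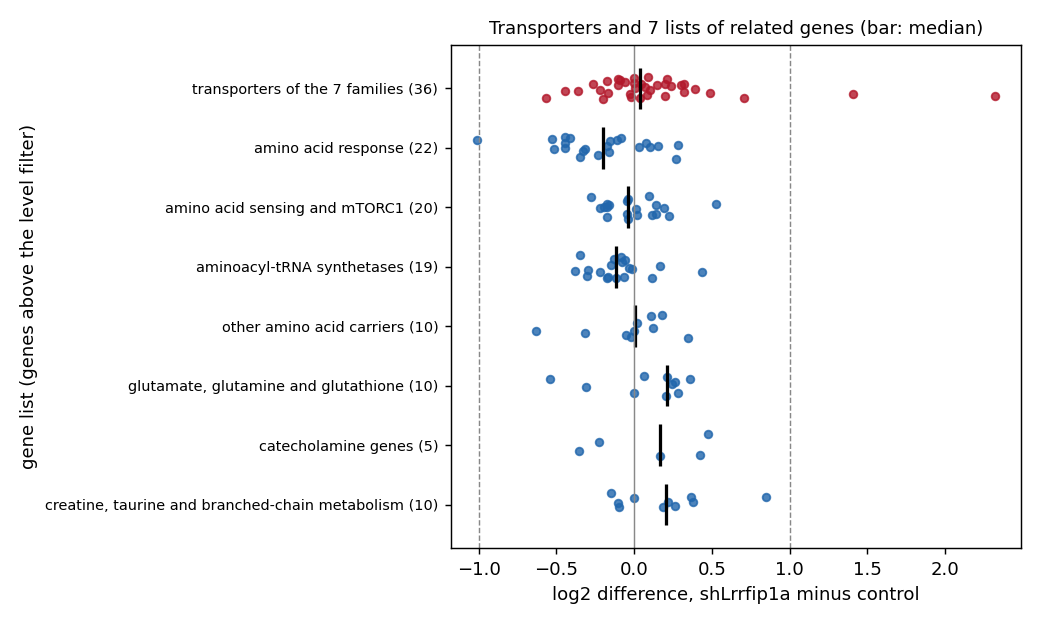
Log2 difference (shLrrfip1a minus control, horizontal axis) of genes above the level filter in the transporters and in 7 lists of related genes (vertical axis, number of genes in brackets), with a black bar at each median and dashed lines at 2-fold. The amino acid response (-0.20) and tRNA synthetase (-0.12) medians lie left of 0, and the transporter median (0.04) lies close to it.

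Markers of the labelled cell type were present on both arrays. All 12 skeletal muscle markers lay above the filter, with summed intensities of 22851 in shLrrfip1a and 24273 in the control and none past 2-fold. Because Slc6a2 marks sympathetic neurons and Slc1a3 astrocytes, markers of both were read. Of 9 sympathetic neuron markers (sums over the 9 of 527 and 559) 3 passed the filter. These were Stmn2 (171 against 209, -0.27), Tubb3 (53.0 against 66.0, -0.25) and Dbh (133 against 117, 0.17). The others were dim, among them Phox2a (29.7 against 24.7), Gap43 (20.9 against 29.8) and Th. Of 7 astrocyte markers (sums over the 7 of 2647 and 1571) 2 passed the filter, namely Sox9 (468 against 390, 0.25) and Gja1 (1996 against 995, 0.99). Gfap (52.5 against 41.9), Aldh1l1 (35.4 against 46.4), Aqp4 (49.0 against 37.7), S100b (32.6 against 34.8) and Fabp7 (13.1 against 26.1) were below it. Gja1 made up most of each astrocyte sum and most of the gap between them. Gja1 and Sox9 are also used by many other cells, and Gja1, the gap junction gene, was higher on its 6 probe sets.

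Of 9 fibroblast markers (sums over the 9 of 20238 and 17430) 6 passed the filter, of which 3 were higher and 3 lower, with a median of 0.01. Dcn was the 1 past 2-fold (3497 against 260), while Col1a1 (1384 against 1854, -0.42) and Pdgfra (219 against 283, -0.35) were lower. Without Dcn the sums over the other 8 were 16741 in shLrrfip1a and 17170 in the control. Of 6 endothelial and blood markers (sums over the 6 of 254 and 167) 1 passed the filter, namely Kdr at 118 against 48.0 (1.07). The part of other cell types in the differences of Slc6a2 and Slc1a3 was not tested, and with bulk RNA more cells of a type and more RNA per cell cannot be told apart.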

How the data were processed

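The authors deposited linear intensities, 1 for each probe set on each array. How they were summarised, background-corrected and scaled is not stated in the labels or files used here. Per the labels' protocols, biotin-labelled cRNA was made from 6 ug of total RNA extracted with Trizol. From these values log2(intensity + 16) was computed and the control was subtracted from shLrrfip1a. A gene was read from its probe set with the highest mean on that scale and kept above the median of all 45101 probe sets. Symbols came from the platform annotation, with 34945 probe sets under 1 symbol and 932 under several, and all 63 member symbols were found in RefSeq (GRCm38.p6). Calls are by size alone (2-fold). With 1 array per group, the number of arrays limits the precision.

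Tables were computed in pandas 2.3.3 and numpy 2.4.6 under Python 3.11.15, loess in statsmodels 0.14.6 and figures in matplotlib 3.10.9, and the steps were tested on simulated data. Any member could be named, and Slc6a2, Slc1a2, Slc3a2 and members above the filter differing by at least 0.5 were given with all probe sets. Of each related list, members past 2-fold and the 3 with the largest differences were named, and other list genes were chosen after their values were seen. Members and lists were chosen with earlier results of these data known.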

Additional observations from a re-analysis of the deposited data

How the results depend on the processing

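The alternatives were pseudocounts of 1 and 64, median centring, quantile normalization, a loess trend removed, scaling to 42 bacterial spike-in controls, no level filter, a stricter one at the 75th percentile, averaging the probe sets of each gene, sizes of 1.5-fold and 3-fold, and counting probe sets. The number of members at least 2-fold higher was 2 and came to 1 with probe sets averaged (Slc1a3), to 1 at 3-fold (Slc6a2), to 3 at 1.5-fold and to 5 as probe sets; no member was that much lower under any of these. On the spike-in scale the member median was 0.20 and that of all genes 0.16, with 28 of 36 members above 0; the medians of Slc3, Slc6, Slc36, Slc43, of the tRNA synthetases and of amino acid sensing, all slightly negative as deposited, were then positive. The Slc6a2 difference was 0.92 and the Slc1a3 difference 1.04 with the mean over probe sets, and Slc38a6 came to -0.33. Changes smaller than the robust spread of differences over all genes (0.23) were taken as no change. No paired analysis was possible because there was a single array on each side, and for the same reason no array could be left out.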
